A study of Mus musculus with 9 samples.

Results

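The chemokines described here are 10 ligands known from the thymus, Ccl25, Cxcl12, Ccl17, Ccl22, Ccl19, Ccl20, Ccl5, Cxcl9, Cxcl10 and Cxcl16. Members were chosen by gene symbol, and every probe set annotated to one of these symbols alone was kept. That gave 9 genes on 14 probe sets, out of 18194 genes with such a probe set, and the brightest probe set by mean intensity stands for each gene. Ccl19, a ligand of Ccr7, is not among them, because the probe set that lists it carries 10 symbols, and it is given no value.

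Chemokines are small secreted proteins that direct cells bearing the matching receptor, and in the thymus they move developing T cells between cortex and medulla. Ccl25 and Cxcl12 are known for drawing in and holding immature thymocytes through Ccr9 and Cxcr4. Ccl17 and Ccl22 act on Ccr4 and Ccl19 acts on Ccr7, receptors that thymocytes gain as they move to the medulla. Ccl20, Cxcl16 and the interferon-induced pair Cxcl9 and Cxcl10 act on Ccr6, Cxcr6 and Cxcr3, which are found on lymphocytes and myeloid cells, and Ccl5 draws in T cells and myeloid cells.

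RNA was measured on 9 arrays, 3 each of reporter-positive cells (ZsG plus), reporter-negative medullary thymic epithelial cells (ZsG minus mTEC, the medullary arrays) and reporter-negative cortical thymic epithelial cells (ZsG minus cTEC, the cortical arrays). All samples are labelled as C57BL/6 mice, used at 8 to 20 weeks of age, and the reporter is the green fluorescent protein ZsGreen on a bacterial artificial chromosome, placed at the start codon of Tslp, the gene of the cytokine TSLP. It therefore reports the Tslp sequences carried by that transgene. The sources used here give no sort gates, no number of mice behind a sample and no word on whether replicates are separate mice, so p-values measure only the spread between arrays, which may be technical. The cell type field reads keratinocytes for every sample, which differs from the titles that set the groups. Of 5 cortical markers, all 5 lay wholly higher on the cortical arrays than in either other group. Of 6 medullary markers, 4 lay wholly higher on medullary than on cortical arrays and 2 overlapped, and 2 lay wholly higher in ZsG plus than on cortical arrays and 4 overlapped, Krt5 and Krt14 among them. The cortical protease gene Prss16 read 41699 to 55909 on the cortical arrays and 505 to 4051 elsewhere, and Aire, the regulator of medullary antigen expression, read 13180 to 23992 on ZsG plus and medullary arrays and 1236 to 2570 on cortical arrays.

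Values are probe set intensities as the authors deposited them, with the same trimmed mean on every array. Bacterial control probe sets PheX and DapX, which match no mouse gene, read 3.77 to 341, so member values in that range are not distinguished from background. ZsG plus arrays varied most, with a median per-gene SD of 1.34 (log2), whereas the medullary arrays had 0.64 and the cortical arrays 0.62. They also had the brightest signal for the control transcript LysX, 98272 to 251468 against 6607 to 33314 elsewhere, and the highest ratio of 3′ to 5′ Gapdh signal, 6.71 to 10.6 against 4.55 to 5.97. The part of these differences in the results for ZsG plus was not tested. In such bulk samples fewer cells of a type and less RNA per cell cannot be told apart.

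The 3 medullary and the 3 cortical arrays did not overlap for any of the 9 measured chemokines, against 28.7% of all genes without overlap. Shares over all genes are not matched for intensity. The 9 had mean intensities of 2229 to 53263, and the median probe set of an array read 230 to 424. Cxcl12, Ccl17, Ccl22, Cxcl16, Ccl5 and Ccl25 lay higher on the cortical arrays, 6 of 9 against 12% of all genes. Cxcl9, Ccl20 and Cxcl10 lay higher on the medullary arrays, 3 of 9 against 16.8%. Differences are on the log2 scale, the group named first minus the group named second. In limma over all 9 arrays, at an adjusted p below 0.05, 0 of the 9 passed in this comparison, beside 0.467% of all genes, and 6 had an unadjusted p under 0.05, beside 12.3% of all genes. The median difference over the 9 genes was −1.05, beside 0.09 over all genes. A limma fit of only these 6 arrays, which leaves out the more variable ZsG plus group, passed Ccl20, Cxcl9, Cxcl12 and Ccl17, 4 of the 9, beside 3.05% of all genes.

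ZsG plus arrays overlapped the medullary arrays for 8 of the 9 genes. Against the medullary group, 0 of the 9 chemokines passed, beside 0.28% of all genes, and 0 had an unadjusted p under 0.05, beside 13.7% of all genes. The groups did not overlap for 1 gene, Cxcl9, which lay lower in ZsG plus, against 18.3% of all genes in either direction and 12.6% lower. Against the cortical group, 1 passed, Ccl17, which was lower in ZsG plus, beside 1.93% of all genes in either direction and 1.31% lower, and 6 had an unadjusted p under 0.05, beside 18.9% of all genes. The groups did not overlap for 5 genes, against 23.4% of all genes: Ccl25, Cxcl12, Ccl17 and Ccl22 lay lower in ZsG plus (13.6% of all genes did) and Ccl20 lay higher (9.82%).

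**Figure D1:**
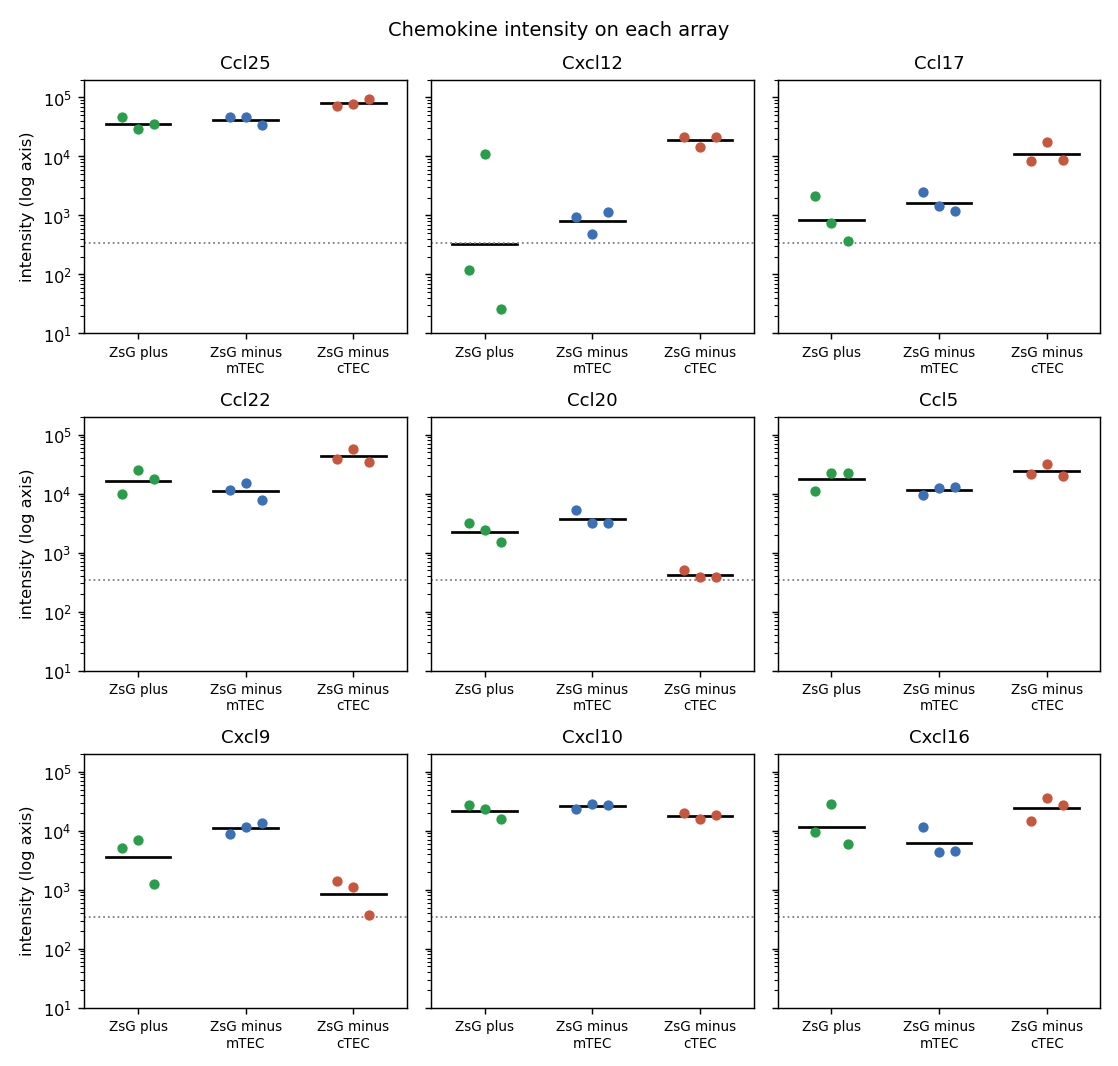
Intensity of the 9 measured chemokines on each of the 9 arrays (points; log axis), by group, with black lines at the geometric mean of the 3 arrays and a dotted line at 341, the highest reading of the PheX and DapX control probe sets. Cxcl12 spans 26.2 to 11083 within ZsG plus, whereas Cxcl10 stays between 15798 and 28534 on all arrays.

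**Figure D2:**
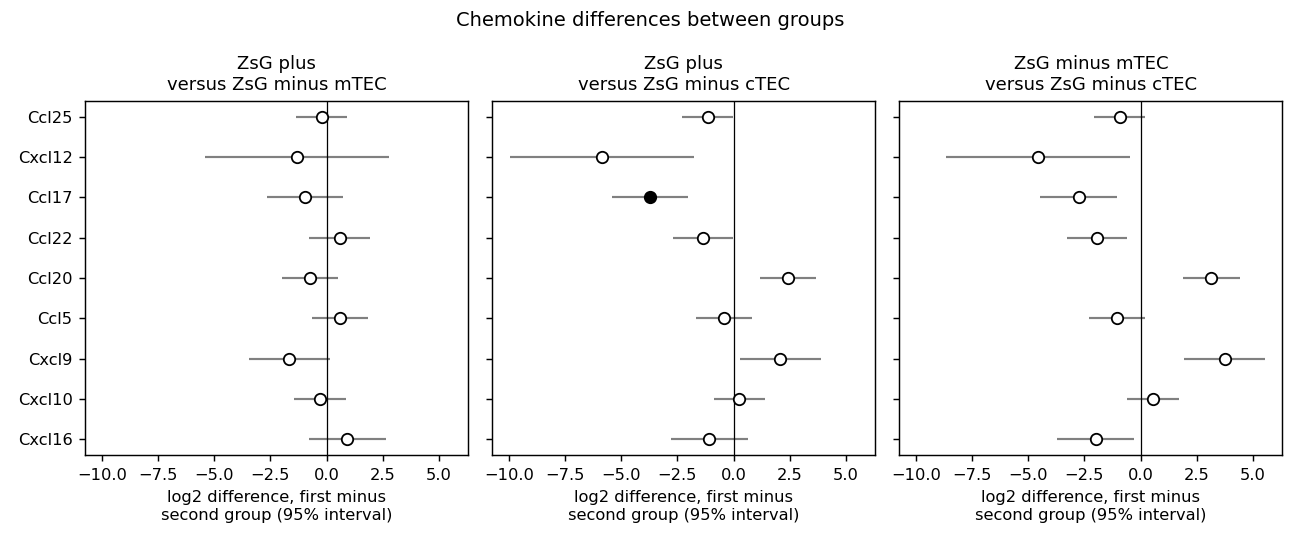
Log2 difference of each chemokine in the 3 comparisons (first group minus second, points) with its 95% interval from limma (lines); the filled point passed the adjusted threshold of 0.05. Ccl17 against the cortical group, at −3.72, is the filled point, and all intervals for ZsG plus against the medullary group include 0.

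Cxcl12, which binds Cxcr4 and is known for holding early thymocytes in the cortex, had the widest gap between the epithelial groups. It read 21484, 14759 and 21441 on the cortical arrays and 949, 477 and 1138 on the medullary arrays. The ZsG plus arrays read 117, 11083 and 26.2. The cortical arrays were thus all above the medullary ones, while ZsG plus held readings within the control range beside 1 near the cortical level. The log2 difference was −4.56 ± 1.82 (SE, n = 3 arrays per group throughout) between the medullary and cortical groups, a fold of 23.6, and did not pass (limma adjusted p = 0.340). It passed in the fit of only these 6 arrays (adjusted p = 0.0159) and without ZsG plus replicate 2 (adjusted p = 0.0408). Between ZsG plus and the cortical group it was −5.87 ± 1.82 (adjusted p = 0.133). Without ZsG plus replicate 2 it passed (adjusted p = 0.00619), but the remaining ZsG plus readings are within the control range, so only a bound can be given. The cortical mean was 55.6-fold the highest control reading, and so at least that far above these remaining readings. Against the medullary group it was −1.31 ± 1.82 (adjusted p = 0.771), and it turned to 0.51 without replicate 3 of ZsG plus. This probe set, the brightest, therefore gives no direction.

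The 3 probe sets of Cxcl12 did not give the same reading of ZsG plus replicate 2. The second probe set read 22.5, 297 and 158 in ZsG plus, all within the control range, so the reading of 11083 was not repeated there. On the other arrays it read 848, 2207 and 352 in the medullary group and 21256, 15218 and 19772 in the cortical group. ZsG plus thus lay wholly below the medullary arrays on this probe set (−3.10). The size of that difference is uncertain, since ZsG plus is within the control range and the medullary reading of 352 is close to it. The medullary and cortical groups differed by −4.41 there and by −4.56 on the first probe set. The third probe set read 12.4 to 368 on all arrays, close to the control range. With the median of the probe sets as the gene's value, Cxcl12 passed against the cortical group both for ZsG plus (limma adjusted p = 0.00733) and for the medullary group (−5.14, adjusted p = 0.0341). The ZsG plus medians, 22.5 to 297, are again within the control range, so the cortical level is given as at least 53.9-fold higher.

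**Figure D3:**
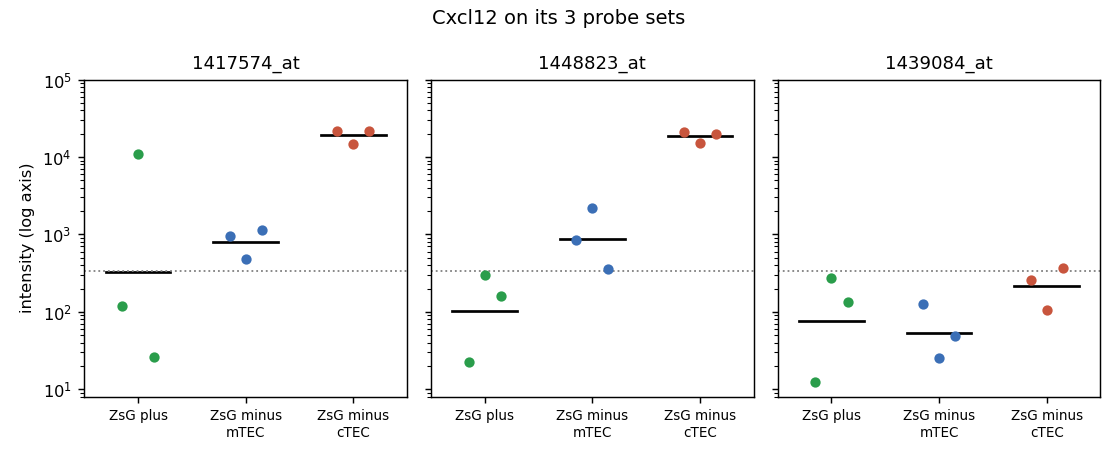
Cxcl12 intensity on each array (points; log axis) for its 3 probe sets, with black lines at geometric means and a dotted line at the highest control reading of 341. The ZsG plus array at 11083 on the first probe set reads 297 on the second, and cortical arrays are above all others on both.

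Ccl25, the Ccr9 ligand that recruits progenitors and is made by thymic epithelium, was bright everywhere. It read 72895, 76564 and 93021 on the cortical arrays, 46045, 46335 and 34727 on the medullary arrays and 45890, 28784 and 35102 in ZsG plus. All cortical arrays lay above all others, while ZsG plus and the medullary group overlapped. The log2 difference from the cortical group was −0.94 ± 0.51 for the medullary group (limma adjusted p = 0.529) and −1.16 ± 0.51 for ZsG plus (adjusted p = 0.258). ZsG plus and the medullary group differed by −0.23 ± 0.51 (adjusted p = 0.868), with a 95% interval from −1.37 to 0.92. The other probe set of Ccl25 read 17.5 to 542, its groups overlapped, and it showed no such order. With the median of both probe sets the difference between ZsG plus and the medullary group was −1.26.

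Ccl17 and Ccl22 are the ligands of Ccr4 and are known as products of medullary epithelium and dendritic cells. Ccl17 read 8436, 17909 and 8669 on the cortical arrays, 2512, 1439 and 1187 on the medullary arrays and 2177, 732 and 362 in ZsG plus. The cortical arrays lay above all others, and ZsG plus overlapped the medullary group. ZsG plus had lower Ccl17 than the cortical group by a fold of 13.1, a log2 difference of −3.72 ± 0.76 (limma adjusted p = 0.0451). This call was lost in 13 of 19 alternatives, where the difference kept its sign (over all 19, −4.41 to −3.12, adjusted p from 0.0228 to 0.161). Among them was leaving out any 1 array other than ZsG plus replicate 1 (adjusted p from 0.0572 to 0.161). The difference between the medullary and cortical groups was −2.75 ± 0.76 (adjusted p = 0.157, or 0.0463 in a fit of those 6 arrays). ZsG plus minus the medullary group gave −0.96 ± 0.76 (adjusted p = 0.592), or −1.66 without ZsG plus replicate 1 and −0.36 without replicate 3.

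Ccl22 read 39165, 57997 and 34405 on the cortical arrays, 11381, 15183 and 7812 on the medullary arrays and 9834, 25340 and 17928 in ZsG plus. As with Ccl17, the cortical arrays were above all others and the remaining groups overlapped. No difference passed: −1.95 ± 0.59 between the medullary and cortical groups (limma adjusted p = 0.193), −1.38 ± 0.59 between ZsG plus and the cortical group (adjusted p = 0.253) and 0.58 ± 0.59 between ZsG plus and the medullary group (adjusted p = 0.688). With array weights, which passed 6.79% of all genes, the first of these passed (adjusted p = 0.0274).

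Ccl22 and Ccl17 are neighbours on chromosome 8 with Cx3cl1, the gene of the membrane-bound chemokine fractalkine, between them, by the order of RefSeq genes in the mouse assembly GRCm38.p6. Cx3cl1, named here for its place, read 612, 779 and 1534 on the cortical arrays, 656, 629 and 641 on the medullary arrays and 2005, 1359 and 1333 in ZsG plus. On this probe set, the brightest of 4, ZsG plus had the highest mean: its difference between the medullary and cortical groups was −0.49 ± 0.56 (limma adjusted p = 0.851), and its ZsG plus arrays lay above the medullary arrays by 1.26 ± 0.56 (adjusted p = 0.365). The probe sets disagreed. With their median as the value, ZsG plus lay above the medullary group by 0.28 and differed from the cortical group by −0.61, in place of 0.77, so the order of ZsG plus and the cortical group turned and no order is given for Cx3cl1.

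The promoters of Ccl17 and Ccl22 are shown because these linked genes both read highest on the cortical arrays. Each is the 250 bases before the RefSeq start of transcription, 5′ to 3′ on the gene's strand, in lower case. Capitals mark matches, on either strand, to 3 motifs of inflammatory transcription: the kappaB site bound by NF-kappaB, the interferon-stimulated response element, searched as GAAA, any 2 bases and GAAA again, and the gamma-activated site TTCNNNGAA bound by STAT factors. Of 32851 RefSeq promoters of this length, 3.9%, 2.98% and 7.02% hold these motifs, in that order. Ccl17 (chr8:94810203-94810452, plus strand of GRCm38.p6) had 1 gamma-activated site match starting at position −99 from the start, and Ccl22 (chr8:94745434-94745683, plus strand of GRCm38.p6) had no match, which says only that these letters are not in this window.
Ccl17: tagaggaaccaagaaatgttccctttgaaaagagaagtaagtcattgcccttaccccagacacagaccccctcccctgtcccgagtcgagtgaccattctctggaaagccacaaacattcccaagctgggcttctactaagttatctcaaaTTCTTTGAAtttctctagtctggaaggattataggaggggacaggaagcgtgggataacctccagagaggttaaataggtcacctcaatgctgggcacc
Ccl22: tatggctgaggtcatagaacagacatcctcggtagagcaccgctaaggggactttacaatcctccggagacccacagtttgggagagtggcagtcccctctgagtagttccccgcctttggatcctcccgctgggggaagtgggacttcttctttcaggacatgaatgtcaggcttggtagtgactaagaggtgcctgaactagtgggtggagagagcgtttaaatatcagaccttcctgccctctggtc

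Cxcl16 and Ccl5 also lay higher on cortical than on medullary arrays. Cxcl16, a membrane-bound ligand of Cxcr6 that Adam10 can shed, read 14621, 36497 and 27793 on the cortical arrays, 11788, 4311 and 4615 on the medullary arrays and 9376, 28056 and 5951 in ZsG plus. The ZsG plus arrays overlapped both other groups. The difference between the medullary and cortical groups was −1.99 ± 0.76 (limma adjusted p = 0.316), and the second Cxcl16 probe set, also without overlap, gave −1.26. ZsG plus differed from the cortical group by −1.08 ± 0.76 (adjusted p = 0.476) and from the medullary group by 0.91 ± 0.76 (adjusted p = 0.618), or −1.72 and 0.28 without ZsG plus replicate 2.

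Ccl5, an inflammatory chemokine made by T cells, myeloid cells and epithelium, read 21487, 32043 and 19797 on the cortical arrays, 9364, 12612 and 13046 on the medullary arrays and 10917, 22571 and 22075 in ZsG plus. The medullary arrays lay below the cortical ones, and ZsG plus overlapped both. The log2 difference was −1.05 ± 0.56 between the medullary and cortical groups (limma adjusted p = 0.516), −0.44 ± 0.56 between ZsG plus and the cortical group (adjusted p = 0.704) and 0.61 ± 0.56 between ZsG plus and the medullary group (adjusted p = 0.651). The sign of the second turned to 0.10 when arrays were centred on their medians.

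Summed markers of thymocytes, fibroblasts and endothelial cells were highest on the cortical arrays. Of 9 thymocyte markers 8 were measured, and their summed intensity was 40243 to 62899 on the cortical arrays, 5700 to 8969 on the medullary arrays and 6581 to 7177 in ZsG plus. The 7 fibroblast markers summed to 34539 to 53193, 6367 to 12736 and 4143 to 25682 in the same order. Within the control range on all arrays of a group were Ptcra in the cortical group, Cd8b1 in the medullary group and both in ZsG plus among thymocyte markers. Among fibroblast markers these were Pdgfrb, Lum with Pdgfra, and Lum with Pdgfrb, in the same order of groups. The 5 endothelial markers, all measured, summed to 2147 to 2593, 1178 to 1848 and 763 to 2051. Within the control range were Emcn in the cortical group, Cdh5, Kdr and Emcn in the medullary group and Pecam1, Cdh5 and Emcn in ZsG plus. Of the 7 fibroblast markers 1 went against its sum. Pdgfrb read 175 to 304 in the cortical group and 365 to 8540 in the medullary group. The 4 thymic epithelial markers, Epcam, Foxn1, Krt8 and Krt18, summed lowest on the cortical arrays. Their sums were 92578 to 124364 there, 133753 to 143379 in the medullary group and 174851 to 304489 in ZsG plus. Krt18 went against this, at 66211 to 87628 in the cortical group and 60802 to 62014 in the medullary group. Fibroblasts are a known source of Cxcl12 and T cells of Ccl5, and the part of these cells in the chemokine differences was not tested.

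Dendritic cells and macrophages are known sources of Ccl17, Ccl22, Ccl5, Cxcl16 and Cxcl9. Of 14 of their markers 13 were measured, and their sums overlapped between the groups: 18846 to 58569 in the cortical group, 41346 to 56725 in the medullary group and 36309 to 103492 in ZsG plus. A large part of these sums was 1 bright marker, Lyz2. It read 6909 to 30493, 31836 to 39773 and 19064 to 66337 in the same order, so the sums say little about the dimmer markers. Xcr1, Adgre1 and Itgam in the cortical group, Itgax, Cd209a, Xcr1 and Adgre1 in the medullary group and Cd209a in ZsG plus stayed within the control range. Flt3, a receptor of dendritic cells and their precursors picked out after its values were seen, read 2935, 8317 and 1945 in the cortical group, 113, 391 and 150 in the medullary group and 3023, 2606 and 4765 in ZsG plus. Single markers did not share an order: Zbtb46 lay lower in ZsG plus than on the medullary arrays (−1.03), where Flt3 lay higher (4.16), and Lyz2 lay higher on the medullary than on the cortical arrays (1.36), where Flt3 lay lower (−4.27). ZsG minus cTEC replicate 2 had the highest reading of all 9 arrays for Ccl17, Ccl22, Ccl5 and Cxcl16 and also for Flt3, Cd209a and Zbtb46. Most of these markers were highest elsewhere: Itgax, Siglech, C1qa, C1qb, Lyz2 and Csf1r on ZsG plus replicate 3, and the rest on other arrays. Without ZsG minus cTEC replicate 2 the differences between the medullary and cortical groups were −2.40, −1.73, −0.84 and −1.71 for those 4 chemokines, against −2.75, −1.95, −1.05 and −1.99 with it. The part of these cells in the chemokine differences was not tested.

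Cxcl9, an interferon-induced ligand of Cxcr3, lay highest on the medullary arrays. It read 8979, 11417 and 13361 on the medullary arrays, 5143, 6851 and 1242 in ZsG plus and 1389, 1106 and 378 on the cortical arrays. The medullary arrays lay above all others, and 1 ZsG plus array fell within the cortical readings. The log2 difference was 3.73 ± 0.80 between the medullary and cortical groups, a fold of 13.3 (limma adjusted p = 0.0850). It passed in a fit of those 6 arrays (adjusted p = 0.0331) and without ZsG plus replicate 3 (adjusted p = 0.0337). ZsG plus differed from the cortical group by 2.08 ± 0.80 (adjusted p = 0.204) and from the medullary group by −1.66 ± 0.80 (adjusted p = 0.404). Without ZsG plus replicate 3 these were 2.83 and −0.90. The second Cxcl9 probe set read 140 to 2179, kept the order of the group means and overlapped between all groups, and with the median of both the medullary and cortical groups differed by 2.89.

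Cxcl10, which shares the receptor Cxcr3 and is also induced by interferon, barely separated the groups. It read 23706, 28534 and 27082 on the medullary arrays, 27120, 23364 and 15798 in ZsG plus and 20176, 15923 and 18412 on the cortical arrays. The medullary arrays lay above the cortical ones, and ZsG plus spanned both. The difference between the medullary and cortical groups was 0.54 ± 0.51 (limma adjusted p = 0.797), with a 95% interval from −0.60 to 1.69. ZsG plus differed by 0.25 ± 0.51 from the cortical group (adjusted p = 0.821) and by −0.29 ± 0.51 from the medullary group (adjusted p = 0.824). These last differences changed sign with another normalization, to −0.10 after quantile normalization and to 0.24 after centring, respectively. Whether Cxcl9 and Cxcl10 differ in their response was not tested.

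Cxcl9, Cxcl10 and Cxcl11 lie together on chromosome 5, in that order, with Art3 starting between Cxcl9 and Cxcl10. Cxcl11 is the other interferon-induced Cxcr3 ligand, is listed as a transcribed pseudogene in this C57BL/6J assembly and is named here for its place. It read 4104, 3644 and 2391 on the medullary arrays, 1914, 3239 and 202 in ZsG plus and 627, 702 and 525 on the cortical arrays. As for Cxcl9, all medullary arrays exceeded all cortical ones, with a difference of 2.42 ± 0.96 that did not pass (limma adjusted p = 0.333). A dimmer Cxcl11 probe set also separated the medullary from the cortical arrays, by 2.52, but its ZsG plus readings were 421, 471 and 4625, so the probe sets differ on ZsG plus replicate 3, the lowest ZsG plus array on one and the highest on the other.

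**Figure D4:**
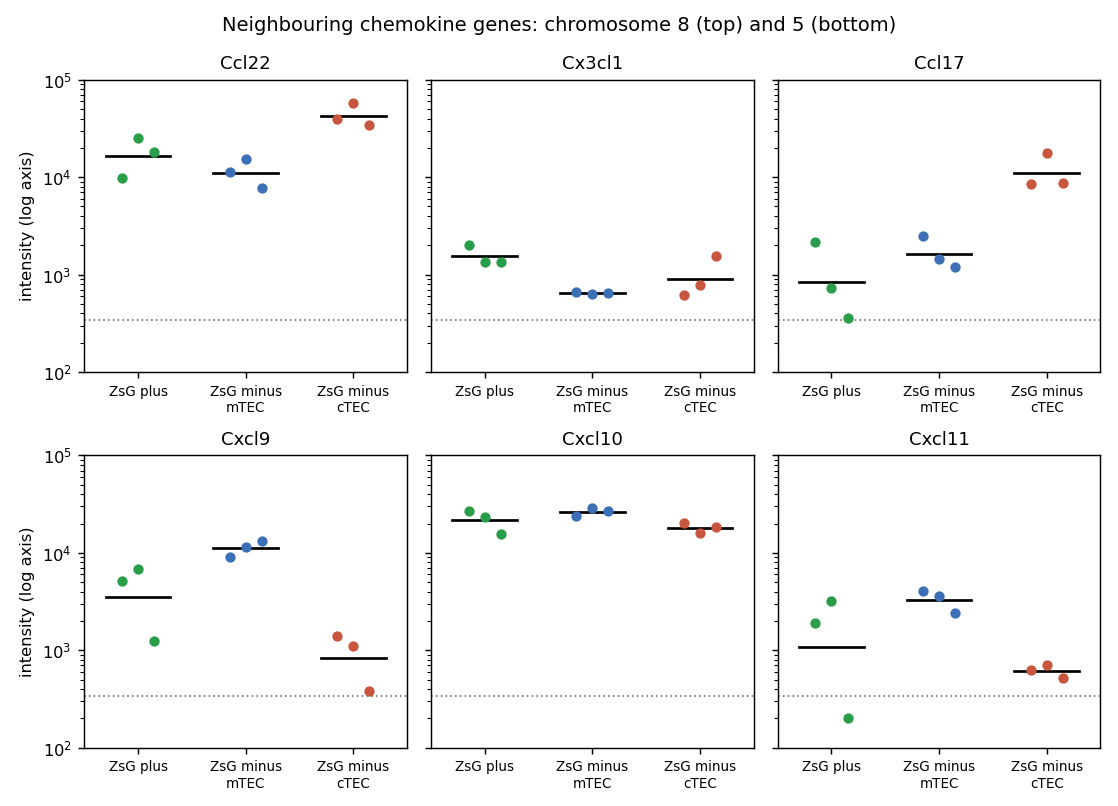
Intensity on each array (points; log axis) for neighbouring chemokine genes, Ccl22, Cx3cl1 and Ccl17 on chromosome 8 (top) and Cxcl9, Cxcl10 and Cxcl11 on chromosome 5 (bottom), with black lines at geometric means and a dotted line at the highest control reading of 341. Ccl22 and Ccl17 are highest on the cortical arrays, the brightest Cx3cl1 probe set overlaps there with the other groups, and Cxcl9 and Cxcl11 have their lowest geometric means there and Cxcl10 is nearly level.

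Ccl20, the ligand of Ccr6, had the lowest adjusted p of the 9 members between the reporter-negative groups. It read 5351, 3170 and 3115 on the medullary arrays, 3217, 2432 and 1496 in ZsG plus and 505, 384 and 392 on the cortical arrays. The cortical arrays lay below all others, near the top of the control range, so the folds are uncertain. The log2 difference between the medullary and cortical groups was 3.15 ± 0.56, a fold of 8.87 (limma adjusted p = 0.0534). It passed in 9 of 19 alternatives (adjusted p from 0.00466 to 0.191 over all 19), among them without ZsG plus replicate 1 (0.0437) or replicate 3 (0.0267). Between ZsG plus and the cortical group it was 2.42 ± 0.56 (adjusted p = 0.0639, or 0.0383 without ZsG plus replicate 3). The medullary group and ZsG plus overlapped, with a difference for ZsG plus of −0.72 ± 0.56 (adjusted p = 0.584).

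The promoters of Cxcl9, Cxcl10 and Ccl20 are shown beside these values because Cxcl9 and Ccl20 had cortical means far below the medullary ones while Cxcl10, the neighbour of Cxcl9, differed little. The same motifs and marks apply. Cxcl10 (chr5:92348890-92349139, minus strand of GRCm38.p6) had 1 interferon-stimulated response element match at position −213 and 2 kappaB matches at −159 and −103. Ccl20 (chr1:83116516-83116765, plus strand of GRCm38.p6) had 1 kappaB match at −80, on the opposite strand, and Cxcl9 (chr5:92328080-92328329, minus strand of GRCm38.p6) had none within these 250 bases. No matches overlapped each other, and a match describes letters and not a bound site.
Cxcl9: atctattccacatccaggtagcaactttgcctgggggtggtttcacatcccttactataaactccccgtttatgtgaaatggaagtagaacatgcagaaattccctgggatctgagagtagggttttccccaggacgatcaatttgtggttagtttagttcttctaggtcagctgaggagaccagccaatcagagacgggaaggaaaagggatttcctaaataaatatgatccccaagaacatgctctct
Cxcl10: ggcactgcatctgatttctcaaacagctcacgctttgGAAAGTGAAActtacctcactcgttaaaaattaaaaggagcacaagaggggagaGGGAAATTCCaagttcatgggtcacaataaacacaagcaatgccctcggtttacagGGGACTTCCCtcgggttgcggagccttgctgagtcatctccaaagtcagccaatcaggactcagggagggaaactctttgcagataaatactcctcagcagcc
Ccl20: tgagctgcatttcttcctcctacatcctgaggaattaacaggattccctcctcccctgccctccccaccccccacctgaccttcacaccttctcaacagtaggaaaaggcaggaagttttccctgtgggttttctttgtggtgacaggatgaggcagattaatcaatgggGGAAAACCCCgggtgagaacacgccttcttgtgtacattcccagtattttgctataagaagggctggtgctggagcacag
Promoters were listed for 8 of the 10 symbols, with 2 starts for Ccl25. Neither Ccl25 start nor the Cxcl12 start had a match, and Ccl19 had 1 interferon-stimulated response element match.

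Receptors of these ligands were read from a list of 13 genes, of which 12 were measured. Against the cortical group, 1 was lower in ZsG plus, beside 1.31% of all genes, and 11 did not pass. The median there was −1.14, beside −0.14 over all genes. For ZsG plus against the medullary group 0 passed, beside 0.28% of all genes. Between the medullary and cortical groups 0 passed, beside 0.467%. The receptor that passed was Ccr7, which guides maturing thymocytes and migrating dendritic cells toward Ccl19. Ccr7 read 20331, 37505 and 19630 on the cortical arrays, 2814, 2818 and 4449 on the medullary arrays and 1920, 3432 and 1724 in ZsG plus. The cortical arrays lay far above the others, with a difference of −3.45 ± 0.57 for ZsG plus (limma adjusted p = 0.0271) and −2.91 ± 0.57 for the medullary group (adjusted p = 0.0666). The first of these calls was lost in 9 of 19 alternatives (adjusted p from 0.0108 to 0.116 over all 19), among them leaving out any 1 medullary or cortical array (0.0560 to 0.114). The second passed in 7 of 19. As for Ccl17 and Ccl22, ZsG minus cTEC replicate 2 had the highest Ccr7 reading.

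Other receptors are given by their readings. Cxcr4, the receptor of Cxcl12, read 20125, 23706 and 14853 on the cortical arrays, 12635, 7999 and 3150 on the medullary arrays and 8443, 553 and 5577 in ZsG plus. Thus both Cxcl12 and its receptor lay highest on the cortical arrays, with a Cxcr4 difference from the cortical group of −1.49 ± 1.02 for the medullary group (limma adjusted p = 0.665) and −2.70 ± 1.02 for ZsG plus (adjusted p = 0.200). Without ZsG plus replicate 1 the latter was −3.45, and replicate 2, at 553, when left out brought it to −1.49. Ackr4, an atypical receptor that removes Ccl19 and Ccl25 and is found on thymic epithelium, read 8899, 9900 and 7203 in the cortical group, 5759, 3490 and 4686 in the medullary group and 3730, 3827 and 9872 in ZsG plus. On this brightest probe set and on the next, ZsG plus overlapped the cortical group. The dimmest Ackr4 probe set read 24.2 to 293 in ZsG plus, within the control range, and 1179 to 3799 in the cortical group. Ccr9, the receptor of Ccl25, also lay higher on the cortical arrays, at 2743 to 3550 against 681 to 2074 elsewhere. This is its brightest probe set. A dimmer Ccr9 probe set read 453 to 976 in ZsG plus and 476 to 721 in the cortical group, so these overlapped there. The remaining Ccr9 probe sets had lower means in ZsG plus than in the cortical group. Ccr4, the receptor of Ccl17 and Ccl22, went the other way from its ligands, at 4119 to 6630 on medullary arrays and 933 to 1676 on cortical arrays (2.06 ± 0.77, adjusted p = 0.303). Ccr9 and Ccr4 were picked out after their values were seen. Thymocytes carry several of these receptors, and their markers also summed highest on the cortical arrays (40243 to 62899). The part of thymocytes in the receptor readings, Ccr7 included, was not tested.

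Of 3 proteases known to act on these ligands, 0 passed in any comparison. Of all genes, 0.28% passed for ZsG plus against the medullary group, 1.93% for ZsG plus against the cortical group and 0.467% between the reporter-negative groups. Adam10, which sheds Cxcl16, read 5121, 4235 and 5943 in the cortical group, 9010, 6964 and 7063 in the medullary group and 5910, 6384 and 4785 in ZsG plus. These are the brightest Adam10 probe set, and the others had ZsG plus means above the medullary ones, by 0.25 to 2.07. Adam17, a related sheddase, read 2129 to 4605 on 8 arrays and 65741 on ZsG plus replicate 3, so its group mean rests on that array. Its other probe sets did not repeat this. They read ZsG plus replicate 3 at 1773 and 706, and ZsG plus lay wholly below the medullary arrays there (−1.73 and −1.40). Dpp4, which trims and inactivates Cxcl12 and Cxcl10 and is given to complete the list, lay higher on the cortical arrays, at 1202 to 5129, than on the medullary arrays, at 448 to 525 (−2.43 ± 1.09, limma adjusted p = 0.415, or −1.38 with the median of its probe sets).

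Of 28 other chemokines listed, 26 were measured, and 20 had a positive and 6 a negative difference between the medullary and cortical groups, with a median of 1.21 beside −1.05 for the 9 members and 0.09 for all genes. In limma 0 passed, beside 0.467% of all genes. An unadjusted p under 0.05 was found for 12 that lay higher and 1 that lay lower, beside 8.37% and 3.91% of all genes. The fit of only the 6 arrays passed 4 of the 26, 3 of them higher, beside 3.05% of all genes. Array weights passed 10, 9 of them higher, beside 6.79% of all genes. In 13 of the 26 the medullary arrays lay wholly above the cortical ones and in 1 wholly below, against 16.8% and 12% of all genes. Among the 13, all cortical readings of Ccl8, Cxcl5, Ppbp and Xcl1 were within the control range, so their folds are uncertain. Ccl24, the 1 below, was within that range on all medullary and cortical arrays. Against the cortical group, ZsG plus had 0 past the threshold, beside 1.93% of all genes, and a median of 1.04. Against the medullary group it had 0 past the threshold, beside 0.28% of all genes, and a median of −0.85, beside −0.35 for all genes.

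The brightest of these were the neutrophil chemokines Cxcl1 and Cxcl2, both ligands of Cxcr2. Cxcl1 read 39180, 42990 and 45024 in the medullary group, 69300, 50156 and 113246 in ZsG plus and 21820, 21536 and 34335 in the cortical group. Cxcl2 read 15192, 15118 and 14010 in the medullary group, 17075, 11628 and 33264 in ZsG plus and 5608, 3312 and 4761 in the cortical group. For both genes the cortical arrays were below all others. Cxcl2 differed from the cortical group by 2.07 ± 0.58 in ZsG plus (limma adjusted p = 0.105) and 1.73 ± 0.58 in the medullary group (adjusted p = 0.245). Cxcl13, the B cell chemokine that binds Cxcr5, was picked out after its values were seen. It read 7693, 5936 and 8145 in the medullary group, 1145, 3122 and 5064 in ZsG plus and 558, 655 and 338 in the cortical group. Its difference between the reporter-negative groups was 3.85 ± 0.67 (adjusted p = 0.0503), and it passed in 8 of 19 alternatives, without ZsG plus replicate 1 (0.0314) or replicate 3 (0.0264) among them. A dimmer Cxcl13 probe set also had the medullary arrays, at 640 to 3337, wholly above the cortical ones. Its readings of 24.6 to 52.1 in ZsG plus and 9.17 to 244 in the cortical group were all within the control range. The probe sets thus differ on ZsG plus, and the dimmer one gives no order of ZsG plus and the cortical group.

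**Figure D5:**
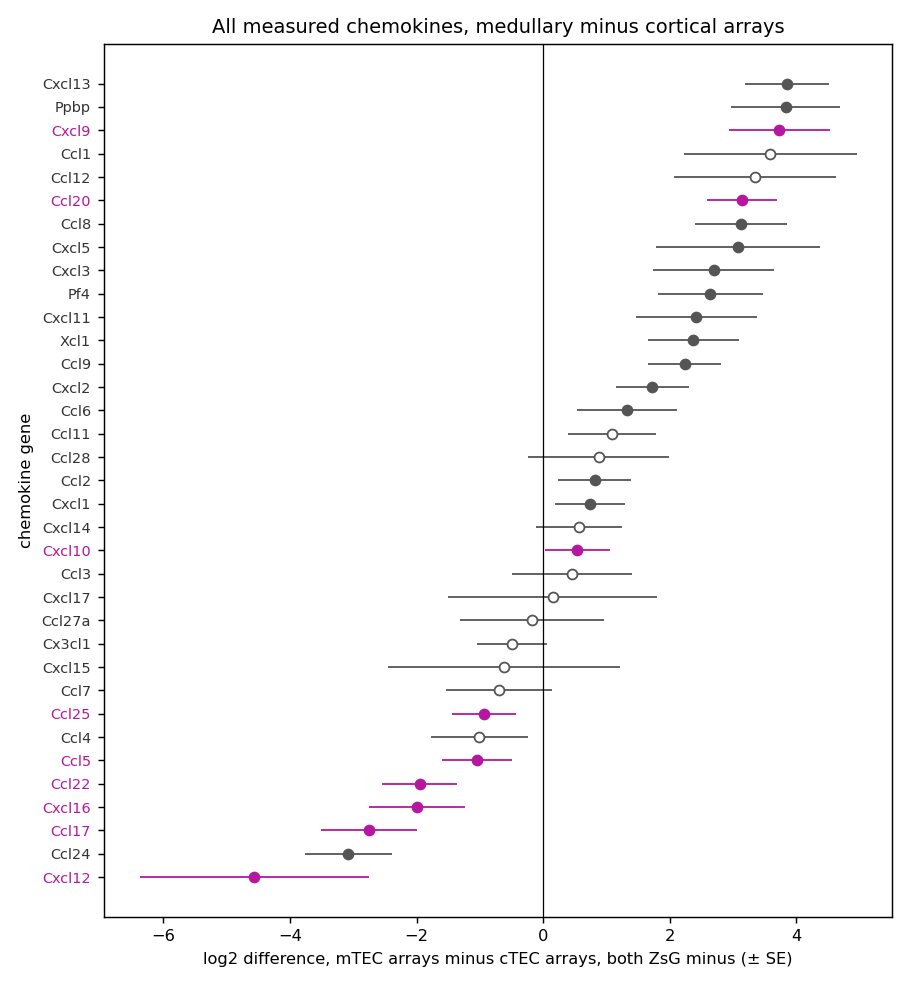
Log2 difference of the 9 members (magenta) and the 26 other measured chemokines (grey) between medullary and cortical arrays, with lines at ± 1 SE; filled points are genes whose 3 and 3 arrays do not overlap. Cxcl12 is lowest at −4.56 and Cxcl13 highest at 3.85, with 6 of the 9 members on the cortical side.

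Genes whose pattern over the 9 arrays was most like that of Ccl17 were sought among 8821 other named genes of intensity above the median, by the root mean square difference of log2 values after centring each gene. The closest were Trbv1, a T cell receptor segment, at 0.52, and Ctsl, the cathepsin L protease of cortical epithelium, at 0.57. Ctsl had geometric means of 93595 in the cortical group, 21372 in the medullary group and 14196 in ZsG plus, and Trbv1 had 16599, 2682 and 1876. The 9 arrays share the contrast of groups, so a gene with the same order of groups comes out as alike.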

How the data were processed

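The deposited values are probe set intensities on a linear scale, 45101 probe sets on 9 arrays. No header or label used here names the software behind them. On every array the authors' intensities have a mean of 1250 with 2% removed at each end, and no detection calls were used. Per the labels' protocols, 5 ng of RNA was amplified (Ovation Pico). Probe sets were named by the platform annotation: 34958 had 1 symbol, 932 several and 9211 none. The brightest probe set by mean intensity was used for each of 18194 genes. Groups were compared on log2 values with limma 3.58.1 in R 4.3.3 (lmFit and eBayes, 1 coefficient per group, 6 residual and 3.21 prior degrees of freedom), two-sided, with Benjamini-Hochberg adjustment over all genes and a threshold of 0.05. Errors after ± are standard errors from this fit. The steps were tested on simulated data. Results were refitted under 19 alternatives of probe set choice, filter, offset, normalization, weighting, blocking and arrays left out. No pair of arrays held identical values. The number of arrays limits the precision. Members, lists and alternatives were chosen with earlier results of these data known. Genes outside the members are those past the threshold and the 2 brightest others of each list, or are marked as chosen otherwise, and markers are given beside results. Promoters are from RefSeq, GRCm38.p6. Figures were drawn with matplotlib 3.10.9.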

Additional observations from a re-analysis of the deposited data

How the results depend on the processing

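The 9 members were refitted in limma under 19 alternatives. Members past the threshold between ZsG plus and ZsG minus mTEC numbered 0 under all of them. Between ZsG plus and ZsG minus cTEC, where 1 passed in the main analysis, 2 passed with the median of the probe sets, the filter at the 40th percentile of intensity, an offset of 32 before log2 or quantile normalization, and 0 with all probe sets tested, only the 6 arrays compared, array weights or the replicate block. Leaving out 1 array gave 0 to 1. Between ZsG minus mTEC and ZsG minus cTEC, where 0 passed, 2 passed with the median of the probe sets, the offset or quantile normalization, 1 with the filter, 1 with the brightest probe set taken by mean log2 intensity (chosen after seeing the data), 4 with only the 6 arrays and 5 with array weights. Leaving out 1 array gave 0 to 2.

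Directions turned where arrays were centred on their medians for Ccl25 (0.31) and Cxcl10 (0.24) against ZsG minus mTEC and for Ccl5 (0.10) against ZsG minus cTEC. With the median of the probe sets, Cx3cl1 against ZsG minus cTEC turned to −0.61. Directions also turned for Cxcl10 against ZsG minus cTEC under quantile normalization (−0.10) and for Cxcl12 against ZsG minus mTEC without 1 ZsG plus array (−3.85 to 0.51 over the 9 arrays left out in turn). Centring subtracts 1 value per array and so shifts every gene in a comparison by the same amount. The cause of the other turns was not tested. Centring moved the median of all genes between ZsG plus and ZsG minus mTEC from −0.35 to 0.19, and that against ZsG minus cTEC from −0.14 to 0.40.

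Counts over all genes depended on the setting. Between ZsG plus and ZsG minus mTEC, 51 genes passed in the main analysis (7.84% higher), 82 with all probe sets tested, 24 with the median, 98 with the offset, 31 after quantile normalization (25.8% higher) and 18 after centring (22.2% higher). With only the 6 arrays 0 passed (1829 at an unadjusted p under 0.05), with array weights 0 (1740), and without 1 array 0 to 288. For ZsG plus against ZsG minus cTEC, 352 passed (32.1% higher), 536 with all probe sets, 572 with the filter, 620 with the offset, 0 with only the 6 arrays (2749 at an unadjusted p under 0.05), 48 with array weights and 0 to 829 without 1 array. The share higher was 50.2% after quantile normalization and 59.7% after centring. Between ZsG minus mTEC and ZsG minus cTEC, 85 passed (85.9% higher), 43 with all probe sets, 178 with the median, 160 with the filter, 244 with the offset, 163 after quantile normalization, 555 with only the 6 arrays (72.3% higher), 1235 with array weights (72.1% higher) and 0 to 286 without 1 array.

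Arrays that share a replicate number did not deviate together (correlations −0.011 to 0.017 over 9 pairs), so the numbers were not taken to pair samples. With the replicate block, 0 genes passed between ZsG plus and ZsG minus mTEC (2366 at an unadjusted p under 0.05), 25 for ZsG plus against ZsG minus cTEC and 0 between ZsG minus mTEC and ZsG minus cTEC (2174 at an unadjusted p under 0.05). Readings within the range of the control probe sets, up to 341, have no reliable order, which limits Cxcl12 in ZsG plus.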
